A study of Arabidopsis thaliana with 24 samples.

Results

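The genes described here are 10 transcription factors of seed maturation in Arabidopsis thaliana, taken by gene identifier from 33243 genes counted. They are the B3-domain factors ABI3 (AT3G24650), FUS3 (AT3G26790) and LEC2 (AT1G28300), the NF-YB subunits LEC1 (AT1G21970) and L1L (AT5G47670), the bZIP factors ABI5 (AT2G36270), EEL (AT2G41070), BZIP53 (AT3G62420) and BZIP67 (AT3G44460), and the heat shock factor HSFA9 (AT5G54070). Each of the 10 identifiers was found once in both count tables. Steady-state RNA was measured in 24 libraries, 3 for each of 8 groups. In each tissue the groups were urt1-1, libraries labelled heso1-4, libraries labelled heso1-4 urt1-1, and WT (Col-0). URT1 and HESO1 encode terminal uridylyltransferases, enzymes that add uridines to RNA ends, and both mutants are T-DNA insertion lines in Col-0. One tissue was dry mature seeds taken 8 weeks after flowering began, and the other was unopened flower buds taken 2 weeks after it began. Plants were grown in soil in a long-day greenhouse, and each library came from tissue pooled from at least 5 plants. RNA was extracted by a different method in each tissue, and the effect of tissue cannot be told apart from that of extraction.

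Seed maturation is the late phase of embryo growth in which storage proteins and oil are laid down and the seed becomes tolerant of drying and dormant. LEC1, LEC2, FUS3 and ABI3 are its master regulators. B3 proteins bind the RY element, NF-YB subunits act in complexes that bind CCAAT boxes, and the bZIP proteins bind G-box and related ACGT elements in promoters of storage protein and late embryogenesis abundant (LEA) genes. ABI5 acts in abscisic acid signalling, EEL is known as an antagonist of ABI5 on a shared LEA promoter, BZIP53 forms heterodimers with other bZIP proteins, BZIP67 works with LEC1-type complexes, and HSFA9 drives heat shock protein genes of the drying seed.

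The 250 bases upstream of each gene's annotated start were read from the TAIR10.1 assembly and searched on both strands for the RY core and the G-box core. The RY core is CATGCA. On the opposite strand it reads TGCATG. The G-box core is CACGTG and reads the same on both strands. The RY core was present in 3 of the 10 windows, those of FUS3, BZIP67 and HSFA9, and in 2314 of 27443 protein-coding gene windows of the same length (8.43%). The G-box core was present in 1 of the 10, that of ABI5, and in 1780 of 27443 windows (6.49%). These 4 windows are shown because they hold a core element that the group's own proteins bind, and that of BZIP53 because its RNA level set it apart from the other measured members. Capitals mark RY or G-box letters. Each is written 5′ to 3′ in the direction of the gene and ends at the base before its start. The windows are chr3:9856213-9856462 (minus strand) for FUS3, chr3:16081907-16082156 (minus strand) for BZIP67, chr5:21943733-21943982 (plus strand) for HSFA9, chr2:15207637-15207886 (minus strand) for ABI5 and chr3:23092851-23093100 (minus strand) for BZIP53.
FUS3: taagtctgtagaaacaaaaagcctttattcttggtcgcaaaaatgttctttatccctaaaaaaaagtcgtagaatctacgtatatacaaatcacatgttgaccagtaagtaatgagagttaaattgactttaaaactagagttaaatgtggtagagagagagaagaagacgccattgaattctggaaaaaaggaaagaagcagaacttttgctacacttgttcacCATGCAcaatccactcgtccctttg
BZIP67: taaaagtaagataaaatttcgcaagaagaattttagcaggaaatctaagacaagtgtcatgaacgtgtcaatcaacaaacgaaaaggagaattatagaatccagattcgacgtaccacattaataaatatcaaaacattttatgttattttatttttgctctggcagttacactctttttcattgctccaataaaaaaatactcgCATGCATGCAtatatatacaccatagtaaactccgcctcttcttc
HSFA9: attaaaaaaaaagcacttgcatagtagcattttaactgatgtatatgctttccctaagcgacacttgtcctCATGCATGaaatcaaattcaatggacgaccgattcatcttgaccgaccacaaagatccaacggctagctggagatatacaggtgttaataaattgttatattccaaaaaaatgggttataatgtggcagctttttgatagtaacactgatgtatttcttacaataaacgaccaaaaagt
ABI5: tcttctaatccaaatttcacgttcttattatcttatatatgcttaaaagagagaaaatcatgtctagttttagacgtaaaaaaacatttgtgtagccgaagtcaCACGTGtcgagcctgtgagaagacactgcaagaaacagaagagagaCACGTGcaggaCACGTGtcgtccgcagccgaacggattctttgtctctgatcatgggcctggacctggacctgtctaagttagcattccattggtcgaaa
BZIP53: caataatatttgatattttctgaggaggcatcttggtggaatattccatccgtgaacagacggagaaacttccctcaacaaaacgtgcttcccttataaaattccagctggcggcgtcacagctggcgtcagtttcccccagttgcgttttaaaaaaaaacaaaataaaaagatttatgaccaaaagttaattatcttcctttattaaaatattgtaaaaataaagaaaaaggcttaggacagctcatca
The ABI5 window holds 3 separate G-box cores. The capitals of BZIP67 are 3 RY cores that overlap each other, and those of HSFA9 are 2 that overlap, while FUS3 has 1. A match describes letters and does not show binding.

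Total counts on genes ranged from 19304121 to 38853305 per seed library and from 23787015 to 39797391 per flower library. Levels below are in CPM, with library sizes scaled jointly over both tissues, and differences are log2 fold changes ± SE. The test was edgeR's quasi-likelihood F-test. Its p-values were adjusted by Benjamini-Hochberg over all genes tested, and a gene is called at an adjusted p under 0.05. Nothing in the labels says how the 3 libraries of a group relate beyond separate pools, so p-values measure the spread between these samples. URT1 RNA fell to 3.51 ± 0.281 CPM (SD, n = 3) in urt1-1 seeds and 4.84 ± 0.236 in seeds labelled heso1-4 urt1-1, against 142 ± 4.20 in WT seeds. HESO1 RNA went against its label, with 243 ± 7.66 CPM in seeds labelled heso1-4 and 65.6 ± 3.68 in seeds labelled heso1-4 urt1-1, against 0.599 ± 0.153 in WT seeds, so loss of HESO1 was not shown. In 1 seed library, replicate 3 labelled heso1-4, the loci AT2G41310 and AT1G15405 held 9.53% and 9.05% of counts. Several results that use this library, though not all, are given with and without it. Summed flower bud markers stood at 0.800 to 4.49 CPM in seeds and 329 to 582 CPM in flowers. Leaf photosynthesis markers stood at 26.1 to 56.0 CPM in seeds and 2404 to 4536 CPM in flowers, and mature pollen markers at 1.21 to 25.3 CPM in seeds and 439 to 1408 CPM in flowers. Seed coat and endosperm markers stood at 1228 to 4498 CPM in seeds, carried by the endosperm gene EPR1, with the seed coat gene TT12 at 3 counts or fewer in every seed library. In flowers the seed coat and endosperm markers stood at 0.833 to 19.5 CPM.

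Dry seeds held RNA of HSFA9, ABI5, ABI3, EEL and BZIP53 at 33.7 CPM or more in every library, and little or none of the other 5 members. The first 5 had median levels of 312, 252, 193, 92.7 and 53.0 CPM over the 12 seed libraries. FUS3, BZIP67 and L1L stood at medians of 5.33, 2.89 and 0.880 CPM. LEC1 had 14 counts in all over 12 seed libraries, and LEC2 had 2. Both are known to act mainly in early embryo development. Per kilobase of exon, the median level in seeds was 206 CPM for HSFA9, 119.5 for ABI5, 62.0 for ABI3, 61.3 for EEL and 41.9 for BZIP53. Within a library HSFA9 stood above ABI5, and ABI5 above ABI3, in 12 of 12 seed libraries. ABI3 stood above EEL in 7 of 12 and EEL above BZIP53 in 10 of 12, so those neighbours are not in a fixed order. FUS3, BZIP67 and L1L followed at medians of 3.33, 1.63 and 0.632 CPM per kilobase of exon, in that order in 12 of 12 libraries. Counts cover the whole gene span, introns included, and per kilobase of span the medians were 186.8, 84.6, 50.5, 35.2 and 41.9 CPM for HSFA9, ABI5, ABI3, EEL and BZIP53, which puts BZIP53 above EEL. BZIP53 is annotated with 1 exon, so its span and exon lengths are the same.

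**Figure D1:**
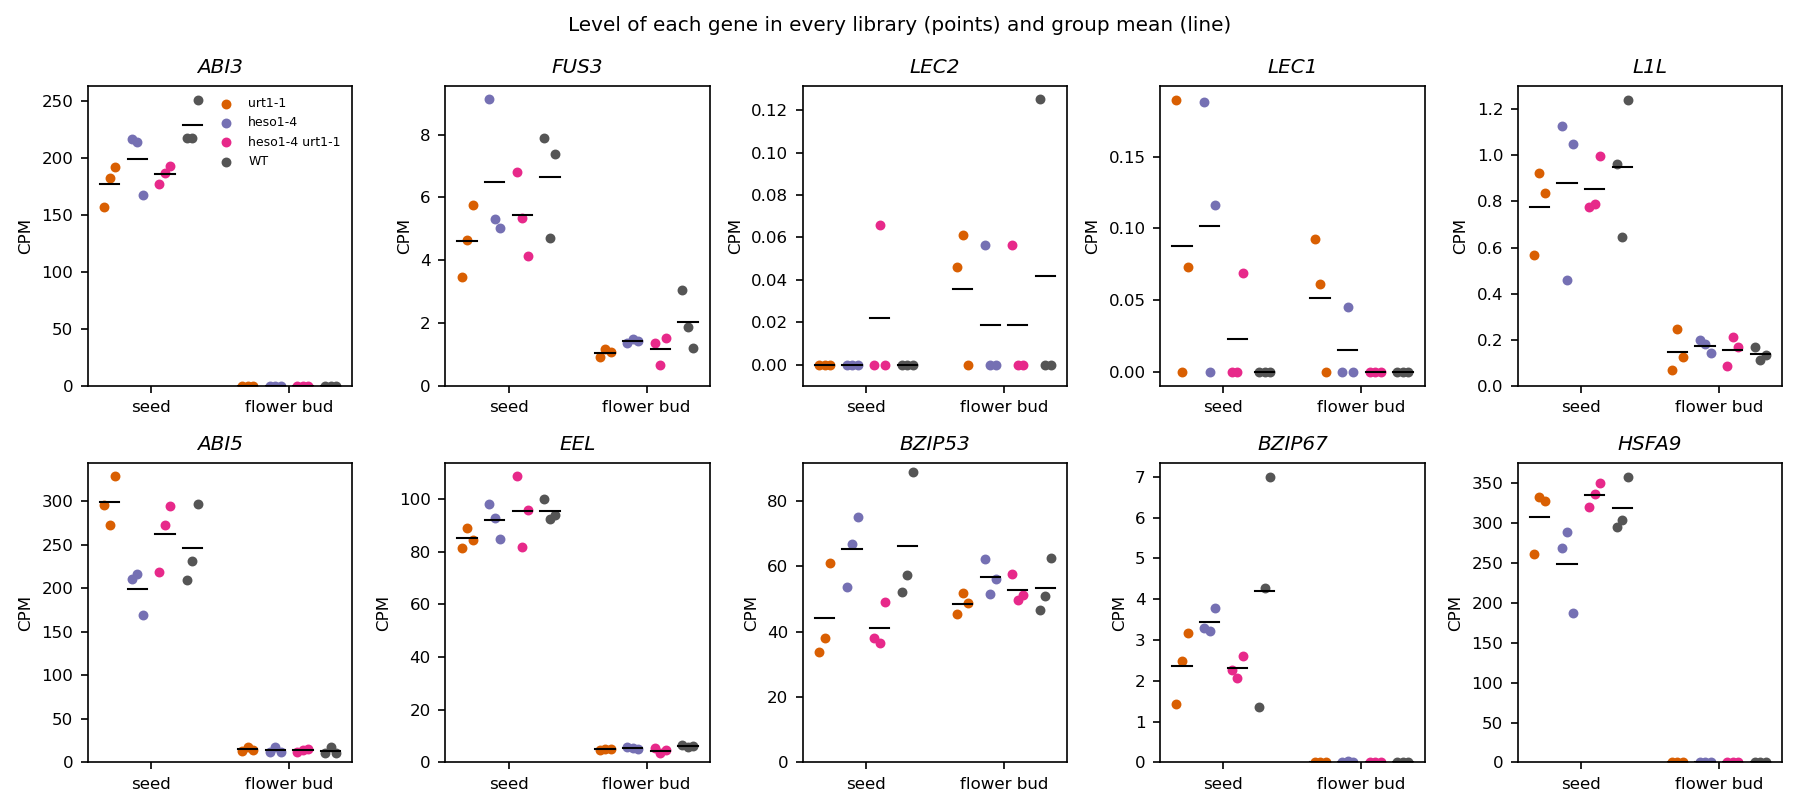
Level in CPM of each of the 10 genes in every library (points, coloured by genotype) with group means (lines), dry seeds left and flower buds right in each panel. ABI3, ABI5, EEL and HSFA9 stand high in all 12 seed libraries and low or at 0 in flowers, BZIP53 stands at like levels in both tissues, and the axes of LEC1 and LEC2 span only a few counts.

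Set against flower buds, WT seeds had higher RNA of ABI5, EEL and FUS3, while BZIP53 was not called. These 4 members passed the filter on low counts in flowers as well as seeds. ABI3, L1L, BZIP67 and HSFA9 passed only through seeds and had to differ, so they are given as values with no test, and LEC1 and LEC2 passed in neither tissue. Over all genes tested in WT, 32.9% were called higher in seeds and 47.7% lower. ABI5, EEL and FUS3 were also called higher in urt1-1 (background 33.2% of genes higher), in libraries labelled heso1-4 (33.1%) and in those labelled heso1-4 urt1-1 (33.2%). These are bulk samples, so fewer cells of a type and less RNA per cell cannot be told apart. The scale matters here: with library totals alone the median of all genes moved by −0.82, and the share of called genes that were higher in WT seeds was 23.2% in place of 40.8%.

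Of the B3 factors, ABI3 (chr3:8997370-9001185, plus strand) ranged from 157 to 251 CPM over 12 seed libraries, against 0 counts in 9 of 12 flower libraries and 8 counts in all. In WT it had 229 ± 19.2 CPM (SD, n = 3) in seeds and no count in flowers, which is at least 3219-fold higher in seeds taking 3 counts per flower library as the limit that a count of 0 allows. That limit lay between 0.0609 and 0.0920 CPM in the flower libraries. FUS3 (chr3:9853828-9856212, minus strand) ranged from 3.47 to 9.13 CPM in seeds, with a median of 5.33, and from 0.658 to 3.04 CPM in flowers, with a median of 1.37, so the tissues did not overlap. In WT, FUS3 was higher in seeds by 1.69 ± 0.35 (edgeR adjusted p = 1.66e-04), and with library totals alone by 0.86 (adjusted p = 0.0501), just over the threshold and so not called. LEC2 (chr1:9896867-9899876, minus strand) had counts in 1 of 12 seed libraries and 5 of 12 flower libraries, 14 in all in flowers and 6 at most in a library.

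For the NF-YB subunits, LEC1 (chr1:7727577-7729649, minus strand) was counted in 5 of 12 seed libraries and 3 of 12 flower libraries, never above 4 counts. L1L (chr5:19314778-19316169, plus strand), a close relative of LEC1, ranged from 0.459 to 1.24 CPM in seeds and from 0.0693 to 0.245 CPM in flowers, which were 7 to 29 counts per seed library and 3 to 8 per flower library. The fitted difference in WT was 2.74 ± 0.51. The annotated span of L1L shares 116 bases with AT5G47660 on the same strand, and reads there were counted for both genes.

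Among the bZIP factors, ABI5 (chr2:15204659-15207636, minus strand) ranged from 169.5 to 329 CPM in seeds and from 10.8 to 18.2 CPM in flowers. Its RNA was thus present in every flower library, unlike that of ABI3, and it was higher in WT seeds by 4.20 ± 0.23 (edgeR adjusted p = 1.03e-12). EEL (chr2:17129753-17132386, plus strand) ranged from 81.3 to 109 CPM in seeds and from 3.55 to 6.51 CPM in flowers, 3.93 ± 0.13 higher in WT seeds (edgeR adjusted p = 1.40e-15). EEL shares 817 bases of its span with AT2G41060 on the same strand, so part of its count may belong to that gene. BZIP67 (chr3:16079432-16081906, minus strand) ranged from 1.35 to 7.001 CPM in seeds and had 1 count in all over 12 flower libraries. In WT its level was at least 59.2-fold higher in seeds by the same limit of 3 counts per library.

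BZIP53 (chr3:23091586-23092850, minus strand) was the member whose RNA stood at like levels in both tissues. It ranged from 33.7 to 89.0 CPM in seeds, with a median of 53.0, and from 45.3 to 62.4 CPM in flowers, with a median of 51.3. The flower libraries all lay inside the range of the seed libraries. The WT difference was 0.31 ± 0.21 (edgeR adjusted p = 0.166), it turned to −0.52 with library totals alone (adjusted p = 0.0112), and it was −0.36 ± 0.21 in libraries labelled heso1-4 urt1-1 (0.113). In that group DESeq2 gave −0.49 (adjusted p = 0.0375), among the 50.9% of genes it called lower there. EdgeR with DESeq2's type of size factors gave −0.49 (edgeR adjusted p = 0.0411). In WT the direction for BZIP53 thus depends on scale, and its difference between these genotypes was not called when tested directly. HSFA9 (chr5:21943983-21945651, plus strand) ranged from 187 to 358 CPM in seeds and had 10 counts in all in flowers. From 4 counts in WT flowers it was 10258-fold higher in WT seeds, with a 95% interval from 4006 to 37648 that covers counting error only. The interval is too narrow if a read pair was counted as 2, which the sources used here do not settle.

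The differences between tissues in the other genotypes were as follows. FUS3 was higher in seeds by 2.13 ± 0.36 in urt1-1, by 2.18 ± 0.36 where the label is heso1-4 and by 2.19 ± 0.36 where it is heso1-4 urt1-1 (edgeR adjusted p at most 1.87e-05). ABI5 was higher by 4.30, 3.83 and 4.25 in the same groups, each ± 0.23, and the fitted difference of L1L was 2.41 ± 0.51, 2.34 ± 0.50 and 2.42 ± 0.50. EEL was higher by 4.11 ± 0.14, 4.08 ± 0.13 and 4.40 ± 0.14. Without replicate 3 of the seeds labelled heso1-4, the differences in that group were 2.31 for FUS3, 3.89 for ABI5, 2.17 for L1L and 4.10 for EEL. HSFA9 had no count in urt1-1 flowers and was at least 3888-fold higher in urt1-1 seeds. For ABI3, the 4 counts in urt1-1 flowers all came from 1 library, and ABI3 was 5108-fold higher in urt1-1 seeds (95% interval 1995 to 18749, counting error only).

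None of the 8 members tested in seeds was called by edgeR in any of the 3 comparisons with WT. In urt1-1 against WT, 2 of 8 had an unadjusted p under 0.05 (ABI3 and BZIP53), and 0.0279% of all genes tested were called. DESeq2 called 0, against 0.0836% of genes. In libraries labelled heso1-4 against WT it was 1 of 8 (HSFA9), with a background of 0.0111%, and DESeq2 called 0 against 0.0167%. In libraries labelled heso1-4 urt1-1 against WT it was 2 of 8 (ABI3 and BZIP53), with a background of 0.0557%. DESeq2 called 0 of the 6 for which it gave an adjusted p, not BZIP67 or L1L, against 0.597% of genes. The median log2 fold change of the 8 was −0.33, −0.15 and −0.23 in these 3 comparisons, against −0.01, 0.00 and −0.01 over all genes tested. The comparisons share their WT libraries.

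**Figure D2:**
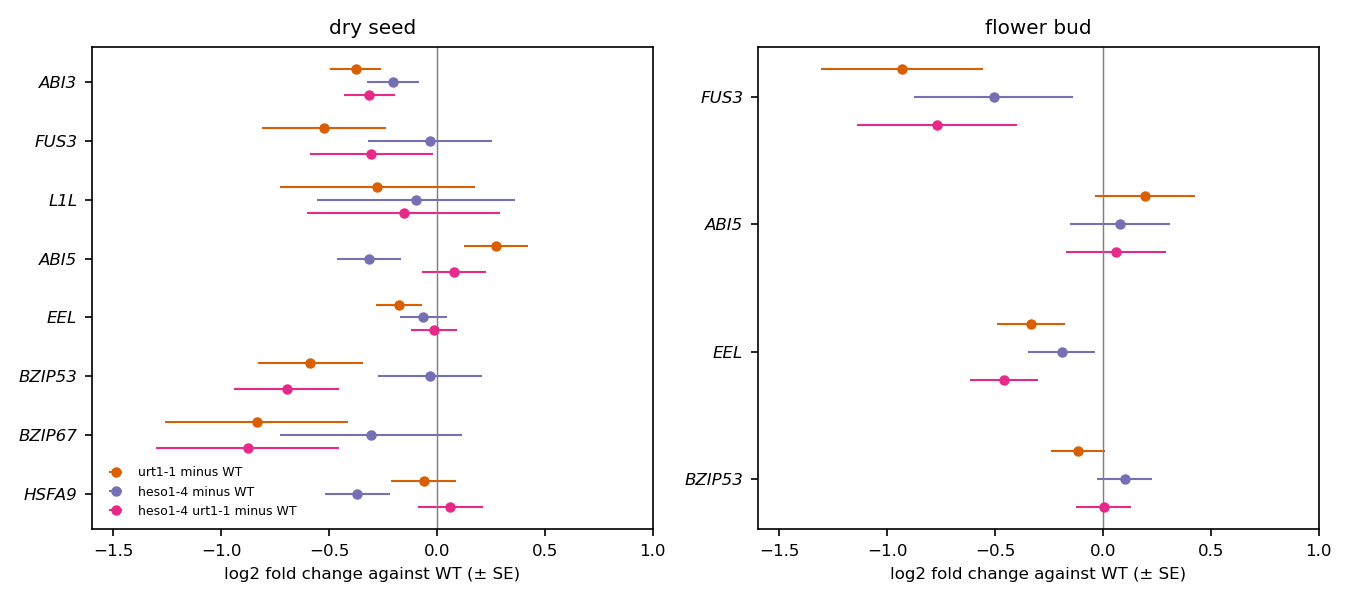
Log2 fold change against WT (± SE) of each tested member in the 3 mutant groups (colours), in dry seeds (left, 8 genes) and flower buds (right, 4 genes). No value passed the threshold by edgeR without a replicate block, and the low points of BZIP53 and BZIP67 in the seeds of both groups that carry urt1-1 lie nearer 0 without WT replicate 3.

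ABI3 stood at 157, 182 and 192 CPM in urt1-1 seeds, at 217.0, 214 and 168 in seeds labelled heso1-4, at 177, 187 and 193 in seeds labelled heso1-4 urt1-1, and at 218, 217.3 and 251 in WT seeds. All 9 mutant libraries lay under the lowest WT library, the closest by less than 1 CPM. How many of all genes separate from WT in this way was not counted. This separation and those given below describe the values and are no result about a member. The difference from WT was −0.38 ± 0.12 in urt1-1 (edgeR adjusted p = 0.565), −0.20 ± 0.12 in libraries labelled heso1-4 (1.0) and −0.31 ± 0.12 in those labelled heso1-4 urt1-1 (0.496). Without replicate 3, the library that stands apart, ABI3 in libraries labelled heso1-4 was −0.09 ± 0.11 from WT. FUS3 stood at 3.47, 4.65 and 5.75 CPM in urt1-1 seeds, 9.13, 5.31 and 5.02 in seeds labelled heso1-4, 6.81, 5.35 and 4.12 in seeds labelled heso1-4 urt1-1, and 7.89, 4.70 and 7.40 in WT seeds. Every mutant group of FUS3 overlapped WT. L1L ranged from 0.570 to 0.924, 0.459 to 1.13 and 0.778 to 0.997 CPM in the same 3 mutant groups and from 0.647 to 1.24 CPM in WT, with much overlap.

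ABI5 stood at 296, 273 and 329 CPM in urt1-1 seeds, 210.4, 217 and 169.5 in seeds labelled heso1-4, 219, 273 and 294 in seeds labelled heso1-4 urt1-1, and 209.7, 231 and 297 in WT seeds. The urt1-1 libraries and those labelled heso1-4 did not overlap each other, and WT overlapped both. Against WT, ABI5 was 0.27 ± 0.15 in urt1-1 (edgeR adjusted p = 0.757), −0.31 ± 0.15 in libraries labelled heso1-4 (1.0) and 0.08 ± 0.15 in those labelled heso1-4 urt1-1 (0.917). Without the replicate 3 library that stands apart, ABI5 in libraries labelled heso1-4 was −0.21 ± 0.15 from WT. EEL had group means of 85.0 ± 3.91 CPM in urt1-1 seeds, 91.9 ± 6.72 in seeds labelled heso1-4, 95.4 ± 13.4 in seeds labelled heso1-4 urt1-1 and 95.4 ± 4.03 in WT seeds (SD, n = 3 each). Its 3 urt1-1 libraries lay under every WT library, and the difference was −0.18 ± 0.11 (edgeR adjusted p = 0.766). HSFA9 stood at 262, 333 and 328 CPM in urt1-1 seeds, 269, 289 and 187 in seeds labelled heso1-4, 320.0, 337 and 351 in seeds labelled heso1-4 urt1-1, and 296, 304 and 358 in WT seeds. The 3 libraries labelled heso1-4 lay under every WT library. That difference was −0.37 ± 0.15 (edgeR adjusted p = 1.0) and −0.20 ± 0.13 without the replicate 3 library that stands apart.

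BZIP53 stood at 33.7, 38.1 and 61.1 CPM in urt1-1 seeds, 53.7, 66.9 and 75.0 in seeds labelled heso1-4, 38.0, 36.6 and 48.9 in seeds labelled heso1-4 urt1-1, and 52.3, 57.4 and 89.0 in WT seeds. The libraries labelled heso1-4 urt1-1 lay under every WT library, and those of urt1-1 overlapped WT through replicate 3. In each of the 4 genotypes replicate 3 was the highest, and replicate by replicate urt1-1 was under WT in 3 of 3. The difference from WT was −0.59 ± 0.24 in urt1-1 (edgeR adjusted p = 0.670), −0.03 ± 0.24 in libraries labelled heso1-4 (1.0) and −0.70 ± 0.24 in those labelled heso1-4 urt1-1 (0.470). Leaving out 1 library moved the BZIP53 difference between −0.88 and −0.32 in urt1-1 and between −0.83 and −0.43 in libraries labelled heso1-4 urt1-1, the values nearest 0 coming without WT replicate 3 and the farthest without the mutant's own replicate 3. Libraries of urt1-1 and WT seeds that share a number also shared their deviations. A fit with that number as a replicate block takes its effect as the same in all 4 genotypes. This fit called BZIP53, which fell by 0.60 in urt1-1 (edgeR adjusted p = 0.0192), the only member called lower where 0.0948% of genes were. That call did not hold up to leaving out 1 library: it remained in 1 of 6 such fits, the one without urt1-1 replicate 3, and adjusted p ranged from 0.0214 to 0.207.

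BZIP67, at far lower counts, stood at 1.42, 2.49 and 3.16 CPM in urt1-1 seeds, 3.29, 3.21 and 3.79 in seeds labelled heso1-4, 2.26, 2.07 and 2.61 in seeds labelled heso1-4 urt1-1, and 1.35, 4.27 and 7.001 in WT seeds. WT spanned the range of every mutant group, and its lowest library had 21 counts. As with BZIP53, replicate 3 was the highest in all 4 genotypes. Its differences from WT were −0.84 ± 0.42, −0.31 ± 0.42 and −0.88 ± 0.42 in the 3 mutant groups (edgeR adjusted p = 0.744, 1.0 and 0.579). Leaving out 1 library moved the BZIP67 difference between −1.24 and −0.28 in urt1-1 and between −1.28 and −0.32 in libraries labelled heso1-4 urt1-1. The values nearest 0 came without WT replicate 3 and the farthest without WT replicate 1.

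**Figure D3:**
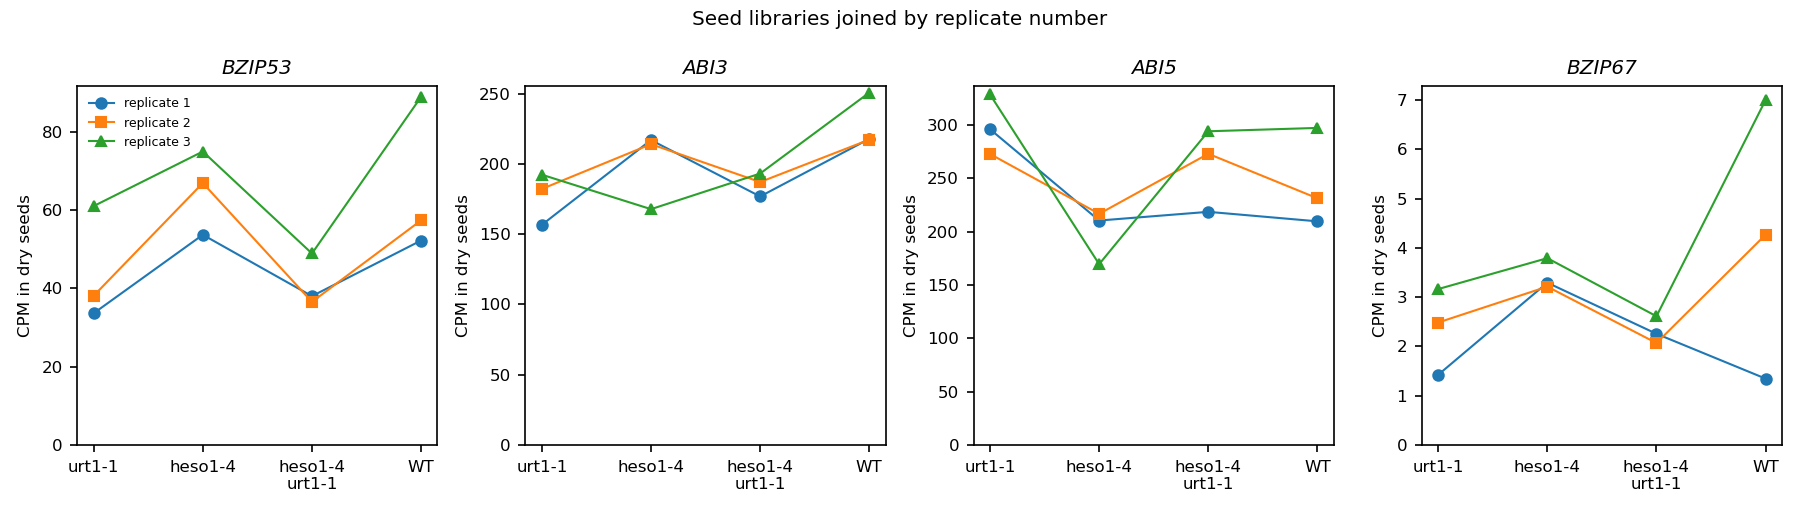
CPM of BZIP53, ABI3, ABI5 and BZIP67 in dry seeds, mutants left of WT, with libraries of the same replicate number joined by a line. Replicate 3 is the highest library of BZIP53 and BZIP67 in all 4 genotypes, and for BZIP53 each line is lower in both groups with urt1-1 than in WT.

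The remaining seed comparisons ask what each insertion adds to the other. In libraries labelled heso1-4 urt1-1 against urt1-1, edgeR called 0 of 8 members, 0 had an unadjusted p under 0.05, and 0.039% of genes were called. DESeq2 called 0, against 0.0613% of genes. Against libraries labelled heso1-4, edgeR called 0 of 8, while 3 had an unadjusted p under 0.05 and 0.0725% of genes were called. DESeq2 called 0, against 0.596% of genes. The 3 were BZIP53 at −0.67 ± 0.24 (edgeR adjusted p = 0.382), HSFA9 at 0.43 ± 0.15 (0.357) and ABI5 at 0.39 ± 0.15 (0.377). Without the replicate 3 library labelled heso1-4, HSFA9 was 0.26 ± 0.13, ABI5 0.28 ± 0.15 and BZIP53 −0.56 ± 0.28. Deviations of libraries that share a number correlated only weakly between these groups (0.12, 0.16 and 0.18). With the replicate block BZIP53 was called, at −0.67 (edgeR adjusted p = 0.00880), among the 0.44% of genes called lower. It remained called in 3 of 6 fits that left out 1 library (adjusted p from 0.000816 to 0.0734), one of them the fit without the library that stands apart. For departure from additivity edgeR called 0 of 8, where 0.0111% of genes were called, and DESeq2 0, against 0.0279%. In that contrast 1 had an unadjusted p under 0.05, HSFA9 at 0.49 ± 0.21 (edgeR adjusted p = 1.0), which was 0.32 ± 0.17 without the library that stands apart.

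Taking the 6 seed libraries with urt1-1 against the 6 without it, BZIP53 had the smallest unadjusted p of the 8. Its level was 33.7 to 61.1 CPM with urt1-1 (median 38.1), against 52.3 to 89.0 CPM without (median 62.2), and 5 of the 6 libraries with urt1-1 lay under every one without it. How often other genes separate like this was not counted. BZIP53 stood at −0.63 ± 0.17 by edgeR (adjusted p = 0.135), not called, and at −0.63 by DESeq2 (adjusted p = 0.0129), called. No member was called by edgeR, where 0.256% of genes were, and 4 of 8 had an unadjusted p under 0.05. DESeq2 called 1, where 3.01% of genes were called. The other 3 were ABI3 at −0.24 ± 0.08 (edgeR adjusted p = 0.189), ABI5 at 0.33 ± 0.10 (0.156) and BZIP67 at −0.70 ± 0.30 (0.280). Without the library that stands apart BZIP53 was −0.57 ± 0.19 (edgeR adjusted p = 0.231), ABI3 −0.30 ± 0.07 (0.110), ABI5 0.28 ± 0.10 (0.252) and BZIP67 −0.67 ± 0.33 (0.397). With the insertion in HESO1 against without, edgeR called 0 of 8, where 0.0167% of genes were called, and DESeq2 0, against 0.0279%. There 1 had an unadjusted p under 0.05, ABI5 at −0.26 ± 0.10 (edgeR adjusted p = 1.0), which was −0.20 ± 0.10 without the library that stands apart.

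ABI3 and ABI5 lay on opposite sides of the comparison by urt1-1, and their ratio within a library, which does not depend on scaling between libraries, was looked at after these values were seen. ABI5 over ABI3 ranged from 1.24 to 1.89 in the 6 libraries with urt1-1, against 0.962 to 1.19 in the 6 without. The 2 sets did not overlap. By group the ratio was 1.70 ± 0.196 in urt1-1, 0.997 ± 0.0240 where the label is heso1-4, 1.41 ± 0.150 where it is heso1-4 urt1-1 and 1.07 ± 0.112 in WT (SD, n = 3 each). The ratio was not tested, because it was chosen for this pattern. How many other pairs of genes separate in this way was not counted, so the lack of overlap does not show an effect of urt1-1.

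**Figure D4:**
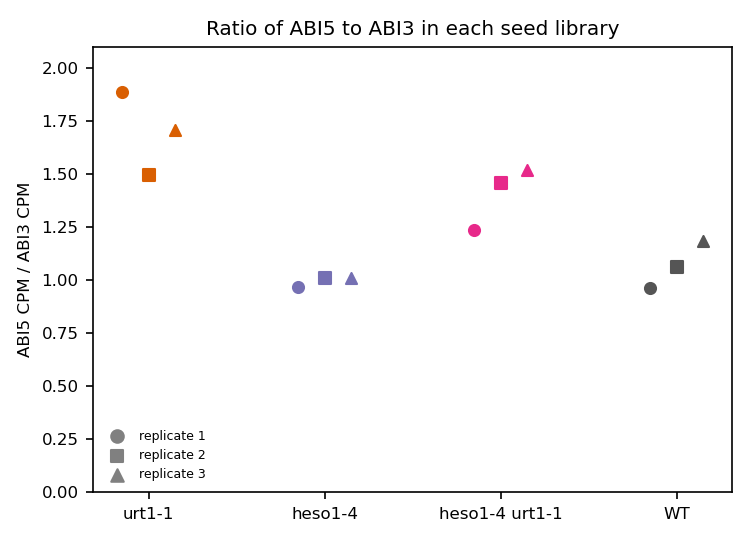
ABI5 CPM divided by ABI3 CPM in each of the 12 seed libraries, by group (mutants left of WT), with a marker for each replicate number. All 6 libraries with urt1-1 lie at 1.24 or above and all 6 without it at 1.19 or below. The pair was chosen after its values were seen, and the ratio was not tested.

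In flower buds only FUS3, ABI5, EEL and BZIP53 passed the filter on low counts, and edgeR and DESeq2 called none of the 4 in any comparison between genotypes. Flower libraries that share a number also shared their deviations, as for urt1-1 and WT (correlations 0.60, 0.13 and 0.44). The values given here are from fits without a replicate block, and with the block edgeR also called 0 of the 4. In urt1-1 against WT, 1 had an unadjusted p under 0.05 (FUS3) and 0.00876% of genes were called. Among libraries labelled heso1-4 against WT it was 0, with a background of 0.00876%, and in libraries labelled heso1-4 urt1-1 against WT it was 1 (EEL), with 0.0131%. Libraries labelled heso1-4 urt1-1 gave 0 against urt1-1 (0.0131% of genes called) and 0 against libraries labelled heso1-4 (0.0131%). With against without urt1-1 it was 2 (FUS3 and EEL, background 0.0175%), with against without heso1-4 0 (0.0131%), and for departure from additivity 0 (0.00438%). DESeq2 called, in the same order of comparisons, 0.0263%, 0.0351%, 0.196%, 0.0175%, 0.246%, 0.193%, 0.0219% and 0.0131% of all genes. It gave an adjusted p for 1 of the 4 members in libraries labelled heso1-4 urt1-1 against WT, for 2 against those labelled heso1-4, and for 4 elsewhere.

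FUS3 in flowers stood at 0.924, 1.17 and 1.09 CPM in urt1-1, 1.36, 1.48 and 1.44 in libraries labelled heso1-4, 0.658 to 1.51 in libraries labelled heso1-4 urt1-1, and 3.04, 1.88 and 1.21 in WT. The 3 urt1-1 libraries lay under every WT library, and WT itself varied most. Against WT, FUS3 was −0.93 ± 0.37 in urt1-1 (edgeR adjusted p = 1.0). EEL stood at a median of 4.96 CPM in urt1-1, 5.35 in libraries labelled heso1-4, 4.605 in libraries labelled heso1-4 urt1-1, and 6.27 in WT, which ranged from 6.03 to 6.51. All 9 mutant libraries of EEL lay under every WT library, and none of the differences was called. The farthest from WT was −0.46 ± 0.16 for the group labelled heso1-4 urt1-1 (edgeR adjusted p = 1.0). How many of all genes separate from WT in this way was not counted. The separations of FUS3 and EEL are thus no result about these members. ABI5 ranged from 13.7 to 17.61, 11.6 to 18.2 and 11.7 to 15.5 CPM in the 3 mutant groups, and from 10.8 to 18.0 CPM in WT. BZIP53 ranged from 45.3 to 51.8, 51.5 to 62.3 and 49.8 to 57.6 CPM in them, and from 46.5 to 62.4 CPM in WT.

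The difference between tissues in each mutant's departure from WT was tested directly for the 8 members. Only FUS3, ABI5, EEL and BZIP53 passed the filter in flowers. The flower counts of ABI3, L1L, BZIP67 and HSFA9 are too few for the test to decide on them. EdgeR and DESeq2 called 0 for urt1-1, where 2 had an unadjusted p under 0.05 (ABI3 and HSFA9, both at 0 to 4 counts in every flower library). There edgeR called 0% and DESeq2 0.0255% of all genes. They called 0 for libraries labelled heso1-4, with 0 under 0.05 and a background of 0.00425% by either tool. For libraries labelled heso1-4 urt1-1 they called 0, with 2 under 0.05 (EEL and BZIP53) and backgrounds of 0.00425% and 0.0769%. BZIP53 in libraries labelled heso1-4 urt1-1 differed between seeds and flowers by −0.67 ± 0.29 (edgeR adjusted p = 0.841), so its lower level in seeds is not shown to be particular to them.

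Genes around the 10 factors were taken as 4 lists. Among known targets, 20 of 21 were called higher and 1 lower in WT seeds than in WT flowers, where 32.9% of all genes were called higher and 47.7% lower and their median was −0.56. Only 13 of the 21 passed the filter in flowers, and the rest had to differ. The count of 20 is therefore not to be weighed against the share of all genes. Their summed level was 109852 to 215518 CPM in seeds and 86.9 to 103 CPM in flowers. HSP101, a heat shock chaperone gene under HSFA9, had 1681 ± 34.3 CPM in WT seeds and 7.09 ± 1.04 in WT flowers (7.89 ± 0.18, edgeR adjusted p = 1.77e-17). The storage protein gene CRU2 had 6596 ± 888 CPM in WT seeds and 0.0752 ± 0.0436 in WT flowers, the LEA gene EM6 had 5001 ± 969 and 0.186 ± 0.110, and the oleosin gene OLE1 had 14503 ± 4369 and 0.619 ± 0.107 (SD, n = 3 each). The 1 that was lower, named after its value was seen, was FAD3, whose desaturase makes linolenic acid, at 5.08 ± 1.08 CPM in WT seeds and 78.7 ± 6.69 in WT flowers (−3.96 ± 0.16, edgeR adjusted p = 1.55e-14).

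Of the partners and relatives, 9 of 20 tested were called higher and 8 lower in WT seeds against WT flowers, with a median of 0.00. Those shares lie near the 32.9% and 47.7% of all genes and are no result about the list. Of the 21 genes listed, 18 passed the filter in flowers and 19 in seeds, and a gene that passed in 1 tissue alone had to differ. The CCAAT-box complex subunits NF-YA1 and NF-YA9 were higher in seeds by 3.45 ± 0.13 and 3.24 ± 0.14 (edgeR adjusted p = 4.39e-15 and 2.02e-14). AGL67, a MADS factor of the seed, had 194 ± 26.3 CPM in WT seeds and 0.165 ± 0.124 in WT flowers, and it is given with no test because its flower counts are so few. BZIP10, a dimer partner of BZIP53, was higher by 1.81 ± 0.12 (edgeR adjusted p = 1.78e-11). BZIP25, another bZIP gene of this list, stood at −0.28, and at −1.09 with library totals alone (edgeR adjusted p = 5.99e-05). Subunits of the CCAAT-box complex also went the other way. NF-YC4, named after its value was seen, was lower, at −4.89 ± 0.32 (edgeR adjusted p = 2.09e-11). So were NF-YC1 at −1.85 ± 0.20 and NF-YC2 at −1.24 ± 0.25 (edgeR adjusted p = 2.94e-08 and 1.37e-04). NF-YC3 and NF-YC9 stood at 0.63 and 0.58, and at −0.20 and −0.24 with library totals alone. NF-YA5 stood at −0.56. Of the genes that control the ABI3 and ABI5 proteins, 7 of 10 were called higher in WT seeds and 2 lower, beside 32.9% and 47.7% of all genes, with a median of 0.80. With library totals alone it was 4 higher and 3 lower, with a median of −0.02. AIP2, an E3 ligase that targets ABI3, was higher by 2.78 ± 0.13 (edgeR adjusted p = 5.78e-14), and AFP2, which binds ABI5, by 2.68 ± 0.20 (1.76e-10). The kinase genes went both ways. SNRK2.3 was higher by 1.96 ± 0.19 (edgeR adjusted p = 8.53e-09), SNRK2.6 was lower, at −2.72, and SNRK2.2 stood at 0.54. DWA2, part of a ligase that targets ABI5, was lower, at −3.26 ± 0.34 (edgeR adjusted p = 2.64e-08).

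Of the repressors of the network, 3 of 9 were called higher and 4 lower in WT seeds, with a median of 0.06, shares that lie near the 32.9% and 47.7% of all genes. CLF, a Polycomb histone methyltransferase, stood at −4.74 ± 0.31 (edgeR adjusted p = 1.32e-11), and VAL3, of the B3-domain repressors, at −2.95 ± 0.30 (1.44e-08). FIE, another Polycomb subunit, was lower, at −0.75 ± 0.14 (edgeR adjusted p = 4.44e-05). Other repressors of the list stood at 0.68 (VAL1), 0.43 (EMF2), 0.08 (PKL), 0.06 (SWN) and −0.57 (VAL2). ASIL1 was higher by 0.74 ± 0.12 (edgeR adjusted p = 7.35e-06), and turned to −0.09 with library totals alone. On that scale, where 4332 of 23557 genes were called higher and 14370 lower, it was 0 and 7 of 9 repressors, 7 and 10 of 20 partners, and 20 and 1 of 21 targets. Only 13 of those targets passed the filter in flowers, so their count is no test of the list.

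**Figure D5:**
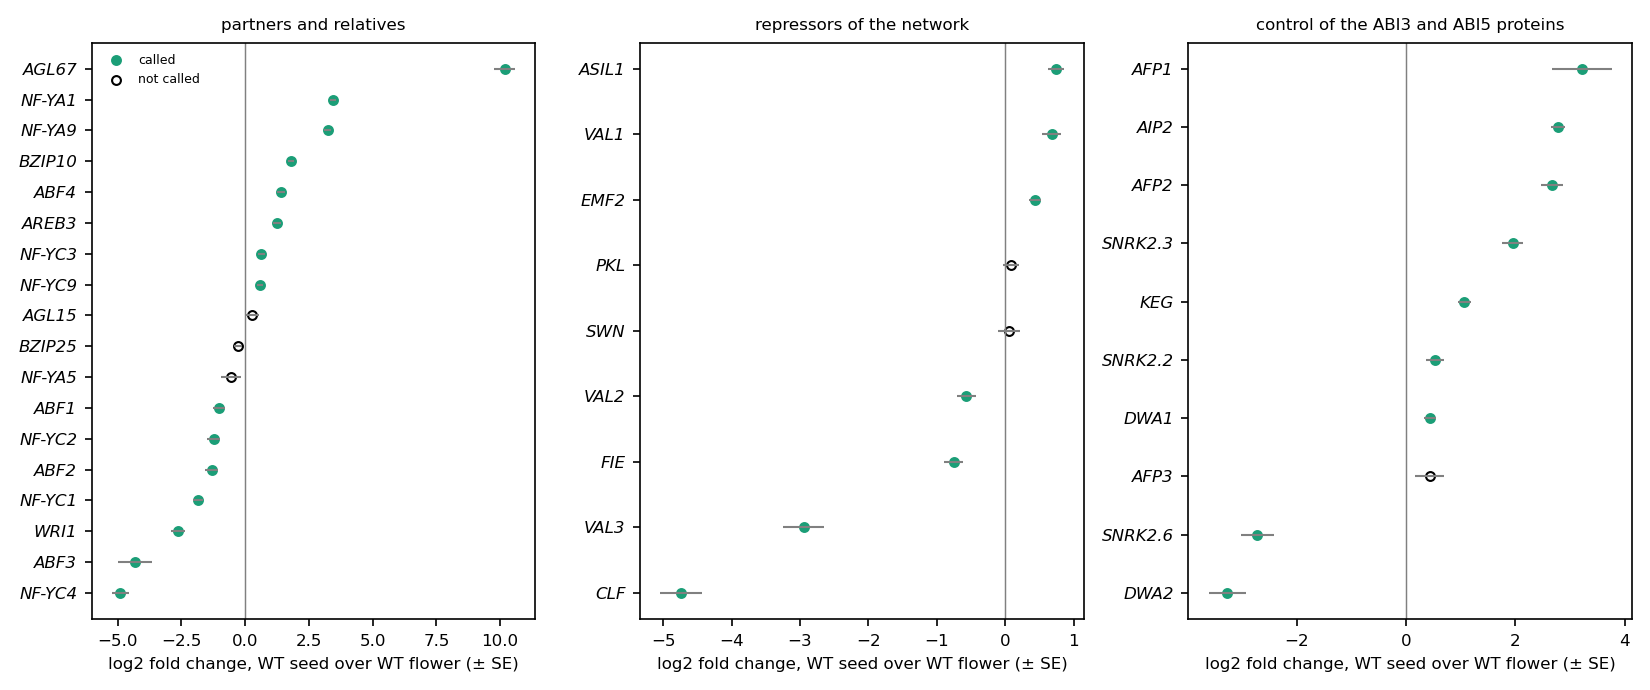
Log2 fold change (± SE) of WT seeds over WT flowers for partners and relatives (18 genes whose SE could be computed), repressors of the network (9) and genes that control the ABI3 and ABI5 proteins (10). Filled points passed an adjusted p of 0.05 and open points did not. Small positive values change sign with library totals alone, and small negative values move farther down.

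Between genotypes, edgeR without a block called no gene of these 4 lists in any seed or flower comparison, and none of the 4 marker lists. With against without urt1-1 in seeds, the median of the known targets was 0.07 and that of all genes 0.00. Mature pollen markers had a median of −1.17 in that comparison, with 0 of 4 called, at sums of 1.21 to 10.2 CPM in urt1-1 seeds, 2.80 to 6.67 in seeds labelled heso1-4 urt1-1, 1.27 to 25.3 in seeds labelled heso1-4 and 4.94 to 15.6 in WT seeds. Their part in the BZIP53 values was not tested.

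For each member with a mean of at least 1 CPM in seeds, the 2 genes with the most like pattern were found among 23549, by the root mean square difference of centred log2 group means over the 8 groups. For ABI3 the nearest was AT3G56350, of the iron/manganese superoxide dismutase family (0.191), and for HSFA9 it was AHG1, a PP2C phosphatase gene (0.353), followed by AT2G34740 of the same family (0.363). For ABI5 it was CHX18, a cation exchanger gene (0.114), for EEL AT4G12130 (0.0924), for FUS3 AT2G34030 (0.145), for BZIP67 CRL1 (0.214) and for BZIP53 AT5G65225 (0.0912). A small value is a likeness over 8 means that mostly share one step between tissues, and AT5G65225 averaged 1.68 CPM in seeds and 1.58 CPM in flowers.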

How the data were processed

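RNA was measured in dry seeds and flower buds of 4 genotypes, 24 libraries. Libraries were stranded, made from 500 ng of DNase-treated total RNA after removal of ribosomal RNA, and read in pairs of 50 bases, per the labels' protocols. The authors deposited raw read counts per gene, 1 table per tissue; per the file headers featureCounts 2.0.6 counted over whole gene spans on the reverse strand, and counted a read for each gene it overlaps. Gene length and other coordinate columns are those deposited by the authors. HISAT2 2.2.1 and TAIR10 are named in the submitters' processing notes. Of counts from 1 to 20, 69.1% to 77.2% were even in seeds and 66.7% to 74.0% in flowers, and the recorded command does not say whether reads or pairs were counted.

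EdgeR 4.0.16 in R 4.3.3 was run per tissue and on all 24 libraries together (filterByExpr with minimum count 10 and total 15, TMM scaling, robust quasi-likelihood fit, prior count 0.125), on 17939, 22841 and 23557 genes. DESeq2 1.42.0, other scalings and filters, halved counts, a replicate block and leaving out each library were alternatives. The fits were tested on simulated data. Intervals are exact 95% Poisson intervals. Tables and figures were made in Python 3.11.15 (pandas 2.3.3, matplotlib 3.10.9).

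The 10 members and all lists were chosen with earlier results of these data known. The genes named are the members, URT1 and HESO1, up to 4 called genes of a list by smallest adjusted p, and the 2 most like each member. FAD3, NF-YA5, NF-YC1, NF-YC2, NF-YC3, NF-YC4, NF-YC9, SNRK2.2, SNRK2.6, EPR1, TT12, AT2G41310 and AT1G15405 fall outside this rule and were named after their values were seen. So do BZIP25, EMF2, PKL, SWN, VAL1 and VAL2. SUS2 falls under it with the replicate block. What a replicate number stands for is not given in the labels it comes from. Numbers were taken to pair libraries where deviations from group means correlated above 0.1 in every pair, as for urt1-1 and WT seeds (0.40, 0.20 and 0.51) and for seeds labelled heso1-4 urt1-1 and heso1-4 (0.12, 0.16 and 0.18). The same held for seeds labelled heso1-4 urt1-1 and urt1-1 (0.11, 0.21 and 0.19). In flowers it held for every pair of groups except heso1-4 urt1-1 and WT, whose lowest correlation was 0.0597. Of 33243 gene IDs, 33056 matched the TAIR10.1 annotation, with the same start and end for 33055.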

Additional observations from a re-analysis of the deposited data

How the results depend on the processing

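ABI5, EEL and FUS3 kept their higher level in seeds in every alternative run, and FUS3 in WT lost its call with library totals alone (0.86, adjusted p = 0.0501). BZIP53 in WT reversed to −0.52 there (adjusted p = 0.0112) and was called with the replicate block (0.28, adjusted p = 0.0398). In libraries labelled heso1-4 urt1-1 it was called with library totals (−1.16) and with the block (−0.37).

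Between genotypes in seeds, the replicate block gave 1 member called, BZIP53, in place of 0 in urt1-1 against WT, in libraries labelled heso1-4 urt1-1 against WT and against those labelled heso1-4, and with against without urt1-1. DESeq2 gave 1 in the last. The pairing is not borne out for libraries labelled heso1-4 urt1-1 and WT (lowest correlation 0.0746) or for all 6 against 6. Their block values for BZIP53 were −0.67 (edgeR adjusted p = 0.00548) and −0.63 (2.32e-04). The block takes the effect of a number as the same in all genotypes. Every block call thus also rests on pairs of groups where the pairing is not borne out. Leaving out 1 library, also with the block (chosen after seeing the data), gave 0 to 1 members in the first 3 comparisons and, in the last, 0 without the block and 1, 2 or 3 with it: BZIP53 in 12 of 12 fits, ABI5 in 4, BZIP67 in 2 and ABI3 in 1. The block changed no other member's call. With it, AFP2 (0.43, adjusted p = 0.0391), SUS2 (0.46, 0.0349) and CRU2 (−0.64, 0.0100) were called with against without urt1-1.

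Over all genes, urt1-1 seeds against WT gave 5 calls, 15 by DESeq2 and 90 with the block. Libraries labelled heso1-4 urt1-1 gave 10, 78 and 206 against WT, and 13, 107 and 205 against those labelled heso1-4. With against without urt1-1 it was 46, 488 and 1128, with 14 under library totals and 131 without the filter on low counts. Fits with 3 libraries a group limit all of these, and LEC1, LEC2 and the flower values of ABI3, L1L, BZIP67 and HSFA9 rest on too few counts for a comparison between genotypes.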
